A study of Mus musculus with 58 samples.

Results

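The 6 dual specificity phosphatase genes Dusp1, Dusp2, Dusp4, Dusp5, Dusp6 and Dusp16 and the small GTPase gene Gem were followed through 34 RNA-seq libraries of mouse microglia. They are 7 of the 47643 genes counted in each library. They were selected on the comparison of Ikbkb-/- with Ikbkb+/+ microglia, in which Gem and Dusp2 fell most, so the values of that comparison are given as a description without a test, while the stated rule uses no value of the comparisons with tau fibrils, in PS19 mice and with constitutively active IKKβ.

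MAP kinases carry signals from receptors to the nucleus once they are phosphorylated on a threonine and a tyrosine, and the MAP kinase phosphatases remove both phosphates. Most of these phosphatases are themselves transcribed in response to the kinases they switch off, so their mRNAs belong to the negative feedback of the pathway. Dusp1, Dusp2, Dusp4 and Dusp5 encode nuclear phosphatases, Dusp1 acting mainly on p38 and JNK and Dusp5 on ERK. Dusp6 encodes a cytoplasmic phosphatase selective for ERK, and Dusp16 one that acts on JNK and p38. Gem belongs to the RGK family of small GTPases, is an immediate-early gene and restrains voltage-gated calcium channels. In macrophages and microglia, Dusp1 and Dusp2 are induced quickly by inflammatory stimuli, and IKKβ, encoded by Ikbkb, is the kinase that releases NF-κB in the same response.

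The libraries formed 8 groups. Wild-type primary microglia were kept for 24 h with fibrils of full-length tau at 2 µg/ml (4 libraries) or given vehicle (4 libraries). Microglia were isolated with CD11b beads, after enzymatic digestion of the brain at 37 °C, from male PS19 mice of 10.98 months (4 libraries), which carry mutant human tau driven by the prion promoter, and from male non-transgenic (NTG) mice of 10.98 or 11.18 months (4 libraries). IkbkbCA microglia (Cx3cr1CreERT2/+; IkbkbCA F/F, 5 libraries) expressed constitutively active IKKβ from a floxed-stop cassette and were compared with IkbkbWT microglia (Cx3cr1+/+; IkbkbCA F/F, 5 libraries), and Ikbkb-/- microglia (Cx3cr1CreERT2/+; Ikbkb F/F, 4 libraries) with Ikbkb+/+ microglia (Cx3cr1+/+; Ikbkb F/F, 4 libraries). All 4 of these groups were primary cultures from newborn pups and all received 4-hydroxytamoxifen as mixed glia. Cre carriers lack 1 working Cx3cr1 allele, so the change in Ikbkb, the Cre and the Cx3cr1 dose cannot be told apart. The labels do not say which cultures or animals were separate preparations, and p-values measure only the spread between these libraries.

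Levels are given as CPM, counts scaled to a library of fixed size, from a joint normalization of the 34 libraries, whose totals were 1672052 to 8349128 counts. Reads of this 3′ tag method do not scale with transcript length, so levels can be set side by side between genes. All 11 microglial markers were counted in every library. Ikbkb was 18.67 to 24.71 CPM in Ikbkb-/- and 45.59 to 55.23 CPM in Ikbkb+/+ libraries, without overlap. It was 45.05 to 60.41 CPM in IkbkbCA and 40.45 to 58.76 CPM in IkbkbWT libraries, which overlapped. Whether transcripts of the active IKKβ cassette carry the 3′ end counted here is not stated. The paper reports raised Ikbkb mRNA in such cultures by quantitative PCR. Cx3cr1 was 1126 to 1316 CPM in IkbkbCA against 1500 to 2014 CPM in IkbkbWT, and 957.2 to 1161 CPM in Ikbkb-/- against 1825 to 2857 CPM in Ikbkb+/+ libraries. Nfkbia, the inhibitor that NF-κB itself induces, was 802.6 to 1309 CPM in IkbkbCA and 334.2 to 386.2 CPM in IkbkbWT libraries. Several libraries stood apart. The RNAs of granulocytes and of the stress response were raised in Ikbkb+/+ libraries 1 to 3. IkbkbWT and IkbkbCA library 3 were rich in oligodendrocyte RNA, with marker sums of 4882 and 1765 CPM against 267.3 to 661.1 CPM in the other 8, and libraries 4 and 5 of both groups in neuronal RNA. Sex-linked RNA also differed, Xist being 242.9 to 400.5 CPM in Ikbkb+/+ and 5.653 to 10.37 CPM in Ikbkb-/- libraries. Xist was 1.701 to 2.824 CPM in IkbkbWT libraries 1 to 3, and 469.1 and 485.3 CPM in libraries 4 and 5. The IkbkbCA libraries lay between, at 149.6 to 278.7 CPM. PS19 library 1, labelled male, had 177.3 CPM, against at most 31.14 CPM in the other 7 adult libraries. In such bulk samples fewer cells of a type and less RNA per cell cannot be told apart.

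The 7 genes lie on 7 chromosomes of GRCm38. Dusp1 (ENSMUSG00000024190) spans chr17:26505590-26562128 on the minus strand, where its exons overlap those of Ergic1 on the opposite strand. Ergic1 was 59.64 to 174.5 CPM over the 34 libraries, with 63.49 to 78.58 CPM in Ikbkb-/- and 66.06 to 73.79 CPM in Ikbkb+/+ libraries. Dusp2 (ENSMUSG00000027368) lies at chr2:127336159-127338376, Dusp4 (ENSMUSG00000031530) at chr8:34807297-34819894 and Dusp5 (ENSMUSG00000034765) at chr19:53529109-53542431, all on the plus strand, and exons of Dusp5 overlap an antisense gene, AC137853.2. Dusp6 (ENSMUSG00000019960) is found at chr10:99263231-99267489 on the plus strand, Dusp16 (ENSMUSG00000030203) at chr6:134715468-134792625 on the minus strand and Gem (ENSMUSG00000028214) at chr4:11704457-11714752 on the plus strand. The sources used here do not say whether counting used the strand. Without it, Dusp1 and Dusp5 reads in the overlapping exons could not be told from those of the opposite-strand partners. Ambiguous reads had a line of their own in the counts, and whether such reads were placed there is not stated.

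RefSeq promoters on GRCm38.p6 were at hand for 5 members, Dusp1, Dusp2, Dusp5, Dusp6 and Dusp16. The 250 bases before the start site are shown for Dusp1, Dusp2 and Dusp5. Dusp1 and Dusp2 were correlated across libraries that include the contrast the genes were selected on, and the Dusp5 window held CArG boxes. The windows cover chr17:26508473-26508722 (minus strand), chr2:127335909-127336158 (plus strand) and chr19:53528895-53529144 (plus strand). Distances below are from the RefSeq start sites, which for Dusp1 and Dusp5 are not the starts of the gene spans given above. The Dusp1 window lies inside its span, and the Dusp5 window reaches past the start of its span. Capitals mark a cyclic AMP response element in Dusp1 and 2 adjoining CArG boxes, the binding motif of serum response factor, in Dusp5.
Dusp1: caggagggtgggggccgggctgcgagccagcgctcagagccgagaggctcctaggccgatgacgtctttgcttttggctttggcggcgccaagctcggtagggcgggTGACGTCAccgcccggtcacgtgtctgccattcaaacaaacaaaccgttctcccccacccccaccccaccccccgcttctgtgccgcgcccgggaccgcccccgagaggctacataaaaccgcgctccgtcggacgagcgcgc
Dusp2: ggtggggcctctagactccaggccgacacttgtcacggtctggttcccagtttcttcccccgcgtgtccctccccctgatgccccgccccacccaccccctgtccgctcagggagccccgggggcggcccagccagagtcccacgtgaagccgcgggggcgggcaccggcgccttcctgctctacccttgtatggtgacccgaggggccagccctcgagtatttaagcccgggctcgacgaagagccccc
Dusp5: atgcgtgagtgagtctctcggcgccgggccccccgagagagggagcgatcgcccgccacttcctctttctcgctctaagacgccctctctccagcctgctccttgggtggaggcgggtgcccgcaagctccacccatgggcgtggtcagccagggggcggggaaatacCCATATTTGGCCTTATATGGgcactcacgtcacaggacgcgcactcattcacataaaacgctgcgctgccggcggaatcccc
The cyclic AMP response element was searched as TGACGTCA, the AP-1 site as TGANTCA, and the κB consensus and the CArG box by their usual degenerate forms, each on both strands. Of 32851 promoter windows of this length, 1.55% held the first, 6.75% an AP-1 site, 7.25% the κB consensus and 1.47% a CArG box. The shorter core of the cyclic AMP response element, TGACG, was searched as well, is in capitals only within the full element, and was held by 17.8% of the windows. Dusp1 held 1 full element, 143 to 136 bases before the start site, and Dusp5 held 2 CArG boxes, at 82 to 73 and 72 to 63 bases. Matches to this core numbered 3 in Dusp1, 2 of them within the full element, 1 in Dusp5 and 1 in Dusp16, at 70 to 66 bases. None of the searched letters was found in the windows of Dusp2 and Dusp6, and no κB consensus or AP-1 site was found in the 5 windows. The GC content was 56.4% in Dusp6 and 64.0% to 70.4% in the other 4, against a median of 52.4% over all promoters.

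Freshly isolated adult microglia had by far the most Dusp1, Dusp2 and Gem mRNA. All 8 adult libraries lay above all 26 culture libraries for each of these 3 genes and for Dusp16, a comparison across separate experiments that is given as a description. The order over the 8 groups was the same for Dusp1, Dusp2 and Gem in its first 3 places, PS19, NTG and Ikbkb+/+, and differed for the others.

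**Figure D1:**
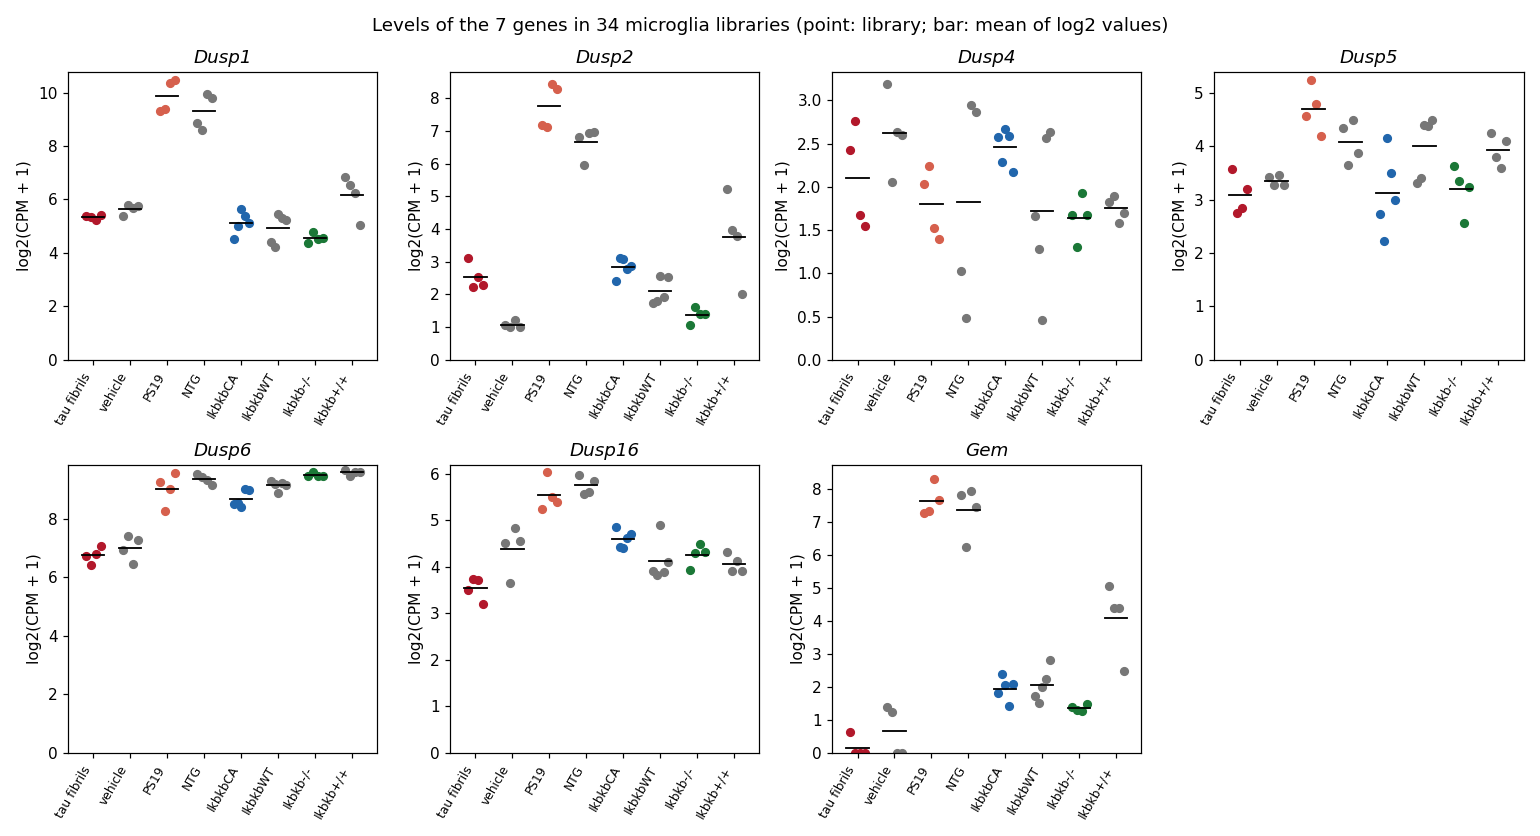
Level of each of the 7 genes, as log2(CPM + 1), in the 34 libraries of the 8 groups. Each point is a library and each bar the mean of the log2 values. Dusp1, Dusp2, Dusp16 and Gem are highest in all 8 adult libraries (PS19 and NTG), and Dusp6 is lowest in the tau fibril and vehicle cultures.

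Dusp1 was 1006 ± 415.6 CPM (SD, n = 4) in PS19 and 682.8 ± 300.5 CPM (n = 4) in NTG microglia, against group means of 22.74 CPM (Ikbkb-/-) to 77.88 CPM (Ikbkb+/+) in culture. Every pair of neighbours in its order of groups overlapped except NTG and Ikbkb+/+. Dusp2 averaged 234.5 ± 108.1 CPM (n = 4) in PS19 and 104.8 ± 29.29 CPM (n = 4) in NTG, and 1.098 CPM (vehicle) to 16.64 CPM (Ikbkb+/+) in culture. For Dusp2 the groups PS19, NTG and Ikbkb+/+ did not overlap one another in this order, nor did IkbkbWT and Ikbkb-/-. Gem followed the same order at the top, with 209.5 ± 76.09 CPM (n = 4) in PS19, 180.5 ± 76.12 CPM (n = 4) in NTG and 19.45 ± 11.42 CPM (n = 4) in Ikbkb+/+. The tau fibril and vehicle cultures, by contrast, held almost no Gem.

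The feedback phosphatase of ERK, Dusp6, was the most abundant member in culture. It stood at 770 ± 43.62 CPM (n = 4) in Ikbkb+/+ and 722.8 ± 37.44 CPM (n = 4) in Ikbkb-/-, overlapped from group to group down to IkbkbCA (419.5 ± 85.63 CPM, n = 5), and was then far lower, without overlap, in vehicle (132.7 ± 36.96 CPM, n = 4) and tau fibril cultures (108.3 ± 19.18 CPM, n = 4). Dusp16 was 53.02 ± 7.317 CPM in NTG and 46.56 ± 12.51 CPM in PS19 (n = 4 each) and 10.75 to 23.41 CPM on average in culture. Dusp5 ranged from a mean of 7.771 CPM with tau fibrils to 25.97 CPM in PS19. Dusp4 was low throughout, 0.378 to 8.152 CPM over the 34 libraries, and no 2 neighbouring groups in its order were separate.

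Immediate-early RNA was high in the adult libraries as well. The 20 listed immediate-early and heat shock genes, Fos, Jun, Egr1 and Hspa1a among them, summed to 12090 to 15870 CPM in PS19 and 6352 to 17960 CPM in NTG, against 851 to 4315 CPM in the cultures. Granulocyte markers were likewise higher in adult microglia, 425.3 to 2567 CPM in sum against 1.575 to 405.9 CPM in culture. The part of the digestion, of these cells and of age in the adult levels was not tested.

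The first tested comparison asked what tau fibrils do to the phosphatase genes of cultured microglia. Dusp16 fell and Dusp2 was higher in all 4 treated cultures, while Dusp1, Dusp4, Dusp5 and Dusp6 did not pass the test and Gem was at the limit of detection in both groups. In the fit, 1 of 5 members tested was called (edgeR quasi-likelihood test, FDR under 0.05), where 29.9% of the 10408 genes tested were called.

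In treated cultures Dusp16 was 10.36, 12.36, 12.08 and 8.197 CPM, and in vehicle cultures 21.74, 11.61, 27.45 and 22.34 CPM. The treated cultures were lower apart from vehicle library 2, which lay among them, so the groups overlapped. Dusp16 fell by 0.86 ± 0.28 on the log2 scale (SE, n = 4 per group; edgeR quasi-likelihood test, FDR = 0.0213). The call was lost without tau fibril library 4 (FDR = 0.0719) or vehicle library 3 (FDR = 0.1) in the same edgeR test and with limma-voom (FDR = 0.108).

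Dusp2 gave 14, 9, 13 and 8 reads with tau fibrils and 2, 5, 3 and 2 reads with vehicle, which is 7.633, 3.708, 4.757 and 3.857 CPM against 1.087, 0.9842, 1.307 and 1.015 CPM. Every treated culture was above every vehicle culture, at a mean ratio of 4.542. Among all genes tested, 28.2% had groups that did not overlap in either direction. The counts were too low for the filter of the main fit. In the fit of all genes without the filter Dusp2 was higher by 2.20 (log2; edgeR quasi-likelihood test, FDR = 0.0059). Gem had 1 read in 1 of the 4 treated cultures and 3 and 7 reads in 2 of the 4 vehicle cultures, and the 5 libraries without a read allow at most 1.1 to 1.52 CPM, a limit from counting error alone.

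The other 4 phosphatases had log2 fold changes below 0 that did not pass the test. Dusp1 was 39.74 ± 2.183 CPM in treated and 49.25 ± 6.177 CPM in vehicle cultures (log2 fold change -0.28 ± 0.17 SE; edgeR quasi-likelihood FDR = 0.226). Dusp6 had a log2 fold change of -0.26 ± 0.17 (edgeR FDR = 0.273), Dusp5 of -0.23 ± 0.32 (edgeR FDR = 0.647) and Dusp4 of -0.48 ± 0.45 (edgeR FDR = 0.467). The median over the 5 members tested was -0.28, beside -0.01 over all genes.

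Around the members, 10 of 11 listed NF-κB feedback genes rose, and the ERK-dependent feedback genes gave more falls than rises. The NF-κB targets, of which 0 fell (edgeR FDR under 0.05), were led by Bcl3 (log2 fold change 2.82), Icam1 (2.62) and Nfkb2 (2.30), with a list median of 1.82. Of 12 ERK feedback targets, 5 fell, 1 rose and 6 did not pass the test, at a median of -0.58. Etv4, a transcription factor downstream of ERK, fell by 1.42 on the log2 scale, Etv1 fell by 0.74 and Spry2, an inhibitor of receptor tyrosine kinase signalling, fell by 0.66, while Spred1 rose by 0.38. Immediate-early genes split into 3 that rose and 4 that fell of 15, Fos rising by 1.30 and Junb by 1.23 and Nr4a2 (-1.12), Egr1 (-0.66) and Jun (-0.52) falling.

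Upstream of the phosphatases, 2 of 8 MAP kinase genes rose, Mapk14 (p38α, log2 fold change 0.81) and Mapk3 (ERK1, 0.53), and Mapk10 (JNK3) fell (-0.95). Map2k2 (0.62) was among 2 of 6 MAP2K genes that rose, and Map3k8, the kinase that links NF-κB1 to ERK, rose by 1.62 and was among 2 of 14 MAP3K genes that rose. Of the related phosphatases, Dusp8 fell by 0.91 (edgeR FDR = 0.017) with overlapping groups, Dusp7 had a log2 fold change of 0.04 (edgeR FDR = 0.929), and Dusp9 and Dusp10 were not tested. Among 9 atypical phosphatases tested Dusp22 rose by 0.83 and Dusp14 fell by 1.27. Rrad, an RGK relative of Gem, rose by 1.70 ± 0.34 (edgeR FDR = 0.00031). The 1 listed tyrosine phosphatase with a kinase interaction motif that was tested did not pass. Markers of other cells moved too. Neuronal markers summed to 169.6 to 217.9 CPM in treated and 320.9 to 431.5 CPM in vehicle cultures, with 6 of 7 tested called lower, astrocyte markers to 262 to 336.5 CPM against 494.5 to 527.3 CPM, and microglial markers to 11220 to 13080 CPM against 5306 to 6894 CPM. Of 6 border-associated macrophage markers, Ms4a7 was 903.8 CPM on average in treated and 169.7 CPM in vehicle cultures and Pf4 91.17 and 63.07 CPM, whereas Mrc1 was 16.51 and 13.25 CPM (edgeR FDR = 0.424) and Cd163, Lyve1 and F13a1 were not tested. Their part in the changes of Dusp16 and Dusp2 was not tested.

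The second comparison asked whether the phosphatase genes differ in microglia from aged PS19 mice. Dusp2 was higher in all 4 PS19 libraries but did not pass the correction over all genes. None of the 7 members was called by edgeR (0 at FDR under 0.05; Dusp2 was the only member at an unadjusted p under 0.05), by DESeq2 or by limma-voom. In all, 0.0707% of the 11323 genes tested were called by edgeR, 8 higher and 0 lower, with 977 genes at an unadjusted p under 0.05. The paper reports more upregulated genes in PS19 microglia at the same FDR threshold, and the reason for the gap was not tested.

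Dusp2 was 145.6, 137.9, 344.8 and 309.7 CPM in PS19 and 111.4, 61.71, 121.8 and 124.4 CPM in NTG microglia. All 4 PS19 values were above all NTG values, and the first 2 were nearer to the NTG libraries than to the other 2. The log2 fold change was 1.10 ± 0.33 (SE, n = 4 per group; edgeR quasi-likelihood test, unadjusted p = 0.00512, FDR = 0.357). Of all genes tested 6.20% had groups that did not overlap. Without the filter on low counts the same difference was called (log2 1.15, edgeR FDR = 3e-04), and over the other 13 alternatives the FDR was 0.0729 or higher (edgeR, DESeq2 and limma-voom).

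Dusp1 was 626.3, 669.9, 1320 and 1409 CPM in PS19 and 464.7, 389.4, 994.9 and 882.3 CPM in NTG. These groups overlapped, and both spread more than 2-fold (log2 fold change 0.50 ± 0.35; edgeR FDR = 0.713). Gem was 154.7, 160.1, 318.6 and 204.5 CPM in PS19 and 226.4, 74.85, 244.5 and 176.4 CPM in NTG. Here the groups lay on top of each other, at a log2 fold change of 0.15 ± 0.33 (edgeR FDR = 0.926), which turned to -0.12 without PS19 library 3.

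Dusp5 was higher in 3 of 4 PS19 libraries than in every NTG library, 25.97 ± 8.241 against 16.47 ± 4.621 CPM (log2 fold change 0.57 ± 0.29; edgeR FDR = 0.615). Dusp6 had a log2 fold change of -0.33 ± 0.25 (edgeR FDR = 0.739), Dusp16 of -0.25 ± 0.22 (edgeR FDR = 0.785) and Dusp4, at 1 to 32 reads a library, of -0.61 ± 0.68 (edgeR FDR = 0.84). NTG library 2 had the lowest Dusp1, Dusp2 and Gem of the 8 adult libraries and also the lowest immediate-early sum, 6352 CPM. Without it the log2 difference of Dusp2 was 0.94 (edgeR FDR = 0.578). Without PS19 library 1, which carried the Xist RNA, it was 1.27 (edgeR FDR = 0.29).

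No gene of the MAP kinase, MAP2K, MAP3K, ERK feedback, immediate-early, NF-κB feedback, phosphatase and RGK lists was called in PS19 microglia. The list medians ran from -0.21 (MAP3K, 14 tested) to 0.27 (Rrad alone), apart from 1.06 for 2 tyrosine phosphatases with a kinase interaction motif, beside 0.00 over all genes. Dusp7 (-0.07) and Dusp8 (0.39) gave no call. The spread between libraries was the widest of the 4 experiments, with a biological coefficient of variation of 30.5% against 10.9% to 23.5%.

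The third comparison asked what constitutively active IKKβ does to the same genes. Dusp6 fell, Dusp2 was higher in 4 of 5 IkbkbCA cultures than in every IkbkbWT culture, and Dusp5 was lower without passing the test. In this comparison 1 of 7 members was called by edgeR, where 14.5% of the 11697 genes tested were called, and 0 of 7 members had groups that did not overlap, where 12.4% of genes did.

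**Figure D2:**
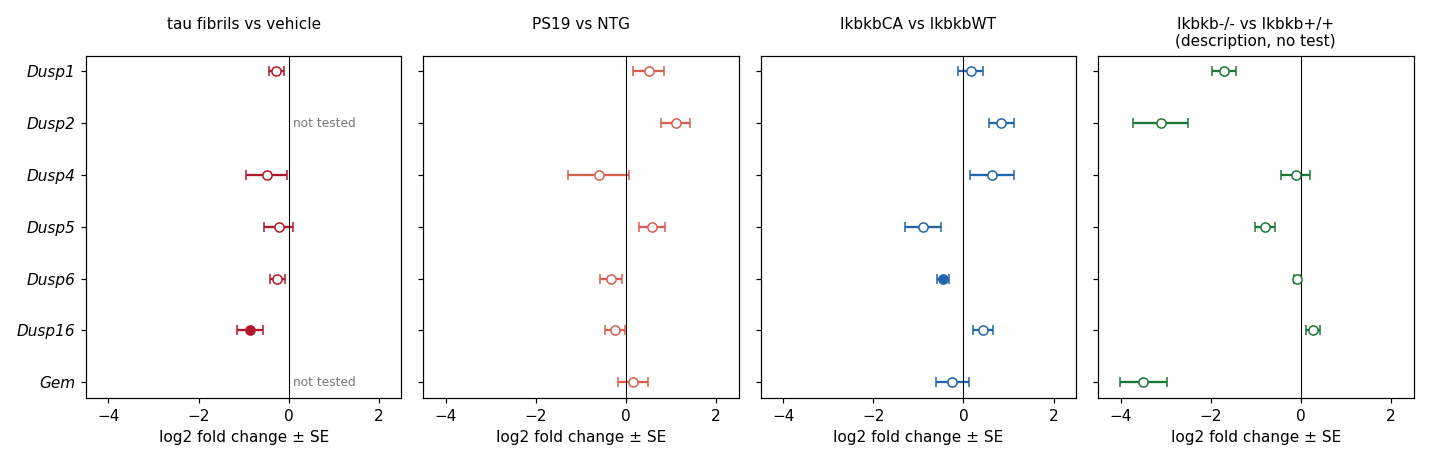
Log2 fold change with its standard error for the 7 genes in the 4 comparisons. Filled points passed edgeR's quasi-likelihood test at FDR under 0.05, which were Dusp16 with tau fibrils (-0.86) and Dusp6 in IkbkbCA microglia (-0.45), and Ikbkb-/- values are a description because the genes were selected on that contrast. Dusp2 and Gem were below the count filter with tau fibrils.

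Dusp6 was 359.7, 373.1, 340.5, 522.8 and 501.3 CPM in IkbkbCA and 631.9, 581.1, 472.1, 596.5 and 568.0 CPM in IkbkbWT cultures. In IkbkbCA 3 of 5 values were below all IkbkbWT values, and the overlap came from IkbkbWT library 3. Dusp6 fell by 0.45 ± 0.13 on the log2 scale (SE, n = 5 per group; edgeR quasi-likelihood test, FDR = 0.0434). The call stood close to its threshold and was lost in 10 of 17 alternatives, at FDR values up to 0.128 (edgeR), among them leaving out IkbkbCA library 1, 2 or 3 or IkbkbWT library 1, 2, 4 or 5.

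Dusp2 was 4.272, 7.744, 7.411, 5.876 and 6.234 CPM in IkbkbCA and 2.326, 2.448, 4.914, 2.79 and 4.761 CPM in IkbkbWT cultures, from 12 to 42 reads a library. The lowest IkbkbCA culture lay among the IkbkbWT values and the other 4 above them. The log2 fold change was 0.84 ± 0.28 (edgeR quasi-likelihood test, FDR = 0.0691). It passed with DESeq2 (adjusted p = 0.0381) and without IkbkbCA library 1 or IkbkbWT library 3 (edgeR FDR = 0.0475 and 0.0465).

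Dusp5 was 5.639, 3.679, 16.86, 10.35 and 6.983 CPM in IkbkbCA and 8.971, 9.59, 20.03, 19.85 and 21.42 CPM in IkbkbWT cultures. Both groups held low and high values, and 3 IkbkbCA cultures were below all controls (log2 fold change -0.89 ± 0.40; edgeR FDR = 0.168). Dusp16 was 28.02, 20.33, 20.01, 23.5 and 25.19 CPM in IkbkbCA and 13.95, 13.06, 28.73, 13.78 and 16.1 CPM in IkbkbWT cultures. Only IkbkbWT library 3 reached the IkbkbCA values (log2 fold change 0.44 ± 0.22; edgeR FDR = 0.225), and without that library the difference was 0.71 and passed (edgeR FDR = 0.00646). Dusp4 (log2 fold change 0.64 ± 0.48; edgeR FDR = 0.457), Dusp1 (0.16 ± 0.28; edgeR FDR = 0.786) and Gem (-0.25 ± 0.36; edgeR FDR = 0.736) did not pass.

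The 10 libraries fell into 3 sets by their RNA of other cells, each with both genotypes. Within every set the genotypes differed in Xist RNA, and the part of this sex-linked difference in the values below was not tested. Dusp6 was lower in every IkbkbCA than in every IkbkbWT culture in each set, with IkbkbCA to IkbkbWT ratios of 0.604 in libraries 1 and 2, 0.721 in the oligodendrocyte-rich libraries 3 and 0.879 in the neuron-rich libraries 4 and 5. Dusp5 was lower likewise, at ratios of 0.502, 0.842 and 0.42, and Dusp2 higher, at 2.52, 1.51 and 1.6. In Dusp16 the order turned in the oligodendrocyte-rich pair (0.696) against the other sets (1.79 and 1.63). With the set as a covariate, which was added after the data were seen, 3 members were called, Dusp6 (log2 -0.47, edgeR FDR = 0.00135), Dusp5 (-0.92, edgeR FDR = 0.00235) and Dusp2 (0.85, edgeR FDR = 0.0231), among 2846 genes called in place of 1692. Without the oligodendrocyte-rich libraries Dusp16 was called (0.78, edgeR FDR = 0.0033) and Dusp6 was not (-0.42, edgeR FDR = 0.0617).

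**Figure D3:**
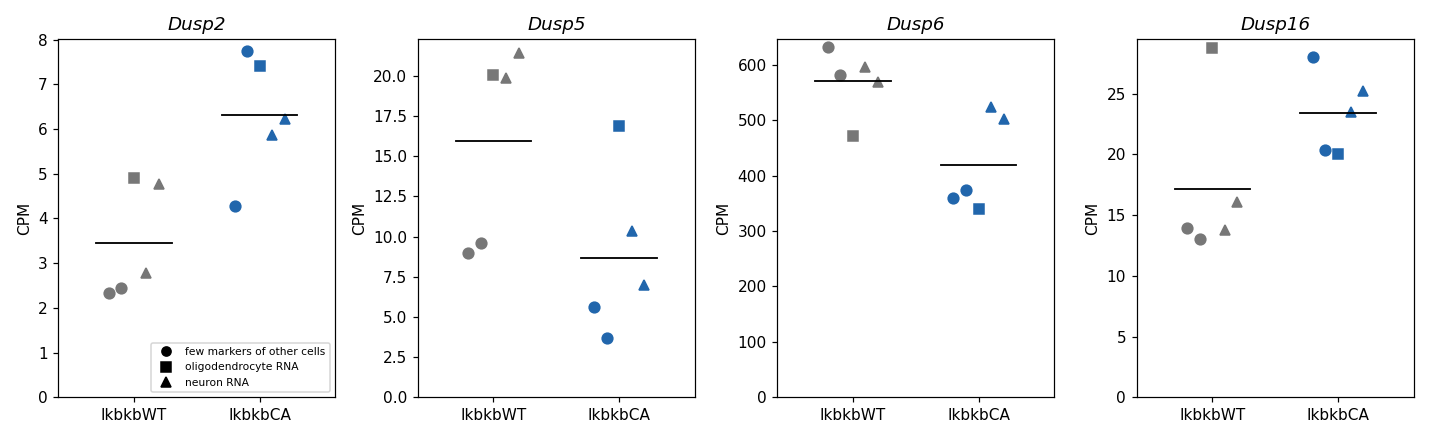
Dusp2, Dusp5, Dusp6 and Dusp16 in CPM in the 5 IkbkbWT and 5 IkbkbCA libraries, with the group mean as a bar. The shape of a point gives its set by RNA of other cells, and within each set Dusp2 is higher and Dusp5 and Dusp6 are lower in IkbkbCA, whereas Dusp16 is lower in the oligodendrocyte-rich pair only.

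Of the 12 NF-κB feedback genes tested, 9 rose and 0 fell in IkbkbCA microglia, at a median of 1.32, led by Nfkbie (2.37), Relb (1.72) and Birc3 (1.51). Of the kinase genes, 0 of 9 MAP kinases, 1 of 7 MAP2Ks and 2 of 14 MAP3Ks were called (edgeR), with Map2k1 rising by 0.75 and Map3k5 falling by 0.36 without overlap. Rrad rose by 2.22 ± 0.21 (edgeR FDR = 4.3e-05), from 6.60 ± 1.56 to 31.27 ± 7.865 CPM (n = 5 each), in contrast to Gem. Among related phosphatases Dusp7 fell by 0.43 (edgeR FDR = 0.0248) with overlapping groups, and Dusp8 (-0.30) and Dusp10 (-0.85) did not pass. The atypical phosphatase Dusp3 fell by 0.43 (1 of 10 called) with overlapping groups. The listed ERK targets gave 1 call of 14, Ccnd1, which rose by 0.90, and the immediate-early genes 2 higher and 3 lower of 19, with Hspa1a (0.86) and Junb (0.63) rising and Klf4 (-0.41) falling without overlap. The granulocyte marker S100a8 was 31.36 CPM on average in IkbkbCA and 5.392 CPM in IkbkbWT cultures, whereas S100a9 was 2.935 and 2.794 CPM (edgeR FDR = 0.959) and Mpo and Elane were at 0. Of 5 border-associated macrophage markers tested, Lyve1, F13a1 and Mrc1 fell, Mrc1 averaging 275.9 against 1150 CPM, Ms4a7 rose and Pf4 did not pass. Their part in the values of Dusp6 and Dusp2 was not tested.

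Tau fibrils and active IKKβ were compared by testing the difference of their effects over 18 libraries, none of which the 2 effects share. The effects come from separate experiments, and that of IkbkbCA also carries the Cre and the Cx3cr1 dose. A difference between them cannot be told apart from these. For Dusp16 the tau effect was lower than the IkbkbCA effect by 1.39 ± 0.37 (log2; edgeR quasi-likelihood test, FDR = 0.0224), the fold changes being -0.86 and 0.44. It was the 1 member called, where 9.42% of the 12841 genes tested were called, and the call was lost without tau fibril library 4 (edgeR FDR = 0.0622), vehicle library 3 (0.058) or IkbkbWT library 2 (0.0508). Differences for Dusp2 (1.29 ± 0.51; edgeR FDR = 0.125), Dusp4 (-1.22 ± 0.72; edgeR FDR = 0.322), Dusp1 (-0.51 ± 0.34; edgeR FDR = 0.394), Dusp5 (0.59 ± 0.54; edgeR FDR = 0.546) and Dusp6 (0.13 ± 0.24; edgeR FDR = 0.798) did not pass, and the tau fibril groups had too few Gem reads for a difference to be read.

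The last comparison is the one the genes were selected on. Gem, Dusp2 and Dusp1 were each lower in every Ikbkb-/- library than in every Ikbkb+/+ library, and the other 4 phosphatases overlapped. That is 3 of 7 members, where 9.30% of the 11242 genes tested were lower and 8.66% higher in this way, and since the choice rests on this contrast nothing is read from the count.

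Gem was 32.51, 20.29, 20.35 and 4.647 CPM in Ikbkb+/+ and 1.637, 1.466, 1.401 and 1.832 CPM in Ikbkb-/- libraries, from 35 to 122 and 3 to 10 reads. Dusp2 was 36.17, 14.64, 12.68 and 3.054 CPM against 1.091, 2.094, 1.634 and 1.649 CPM. Dusp1 was 113.6, 91.6, 74.07 and 32.26 CPM against 19.65, 26.8, 22.18 and 22.35 CPM. In all 3 genes the Ikbkb-/- libraries were alike and the spread was in Ikbkb+/+, with library 1 highest and library 4 lowest.

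The fitted log2 fold changes were -3.49 ± 0.52 for Gem, -3.11 ± 0.61 for Dusp2 and -1.70 ± 0.27 for Dusp1, which placed them at rank 8, 10 and 39 from the lowest of 11242 genes. Between and around them stood Xist (rank 1), the antigen presentation genes H2-Eb1 and Cd74 (2 and 3), Siglech (4), the granulocyte genes S100a9 and S100a8 (5 and 7), Itgax (6) and the ribosomal pseudogene Rps3a3 (9). Dusp5 had a log2 fold change of -0.80 ± 0.23, with 3 of 4 Ikbkb-/- libraries below all controls, Dusp16 of 0.27 ± 0.16, Dusp4 of -0.11 ± 0.33 and Dusp6 of -0.08 ± 0.08.

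**Figure D4:**
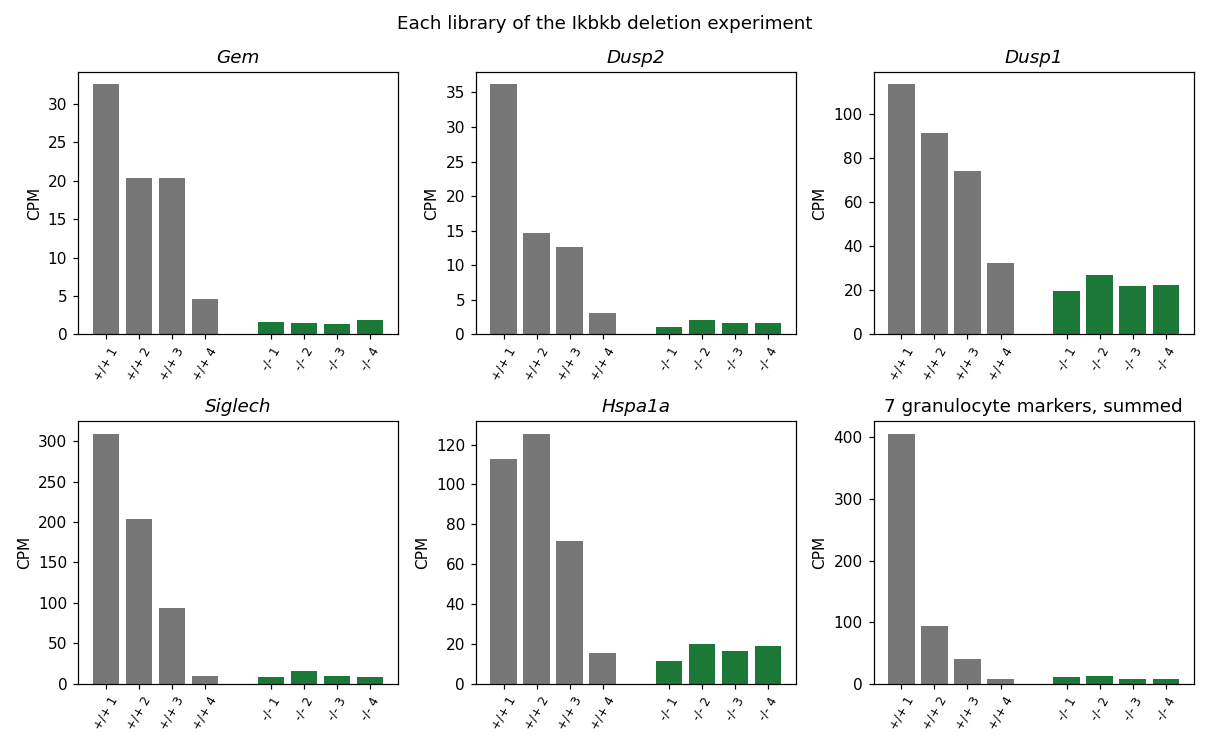
Gem, Dusp2, Dusp1, Siglech and Hspa1a and the sum of 7 granulocyte markers, in CPM, in each of the 4 Ikbkb+/+ (grey) and 4 Ikbkb-/- (green) libraries. Ikbkb+/+ libraries 1 to 3 are high in all 6 panels, and Ikbkb+/+ library 4 is the nearest to the Ikbkb-/- libraries for Gem (4.647 CPM), Dusp2 (3.054 CPM) and Dusp1 (32.26 CPM).

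Ikbkb+/+ libraries 1 to 3 were also the highest of all 26 culture libraries for Gem, Dusp2 and Dusp1, whose highest values in the 22 libraries of the other culture groups were 6.008, 7.744 and 53.94 CPM. Ikbkb+/+ library 4 lay within the IkbkbWT range for these genes (1.836 to 6.008 CPM for Gem, 2.326 to 4.914 CPM for Dusp2 and 17.75 to 43.09 CPM for Dusp1). Other RNAs, of microglia as well as of other cells, were also higher in Ikbkb+/+ libraries 1 to 3 than in library 4. The microglial marker P2ry12 was 488, 416, 284.6 and 111.7 CPM against 128.8 to 146.4 CPM in Ikbkb-/-. Tmem119 was 226.9, 201.2, 121.9 and 47.4 CPM against 99.88 to 214.9 CPM. Of the 11 microglial markers, 6 had log2 fold changes above 0 and 5 below 0. The 7 granulocyte markers summed to 405.9, 94.11, 39.37 and 7.7 CPM in Ikbkb+/+ and 8.17 to 12.56 CPM in Ikbkb-/- libraries, with 4 to 6 and 4 to 5 of the 7 markers counted. Siglech, a lectin of microglia and plasmacytoid dendritic cells, was 309.4, 204.1, 93.09 and 9.824 CPM against 8.062 to 15.7 CPM. Hspa1a, an inducible heat shock gene, was 112.9, 125.5, 71.4 and 15.4 CPM against 11.46 to 19.89 CPM. Between the genotypes, oligodendrocyte markers summed to 229.4 to 333.8 CPM in Ikbkb+/+ and 438.8 to 530.4 CPM in Ikbkb-/-, and 4 of 5 border-associated macrophage markers tested were lower in every Ikbkb-/- library, Mrc1 averaging 409.7 against 1211 CPM, while Ms4a7 was higher. With Ikbkb+/+ libraries 1 to 3 left out, an alternative added after the data were seen, library 4 was the only control. The log2 fold change was then -1.51 for Gem, -0.82 for Dusp2 and -0.46 for Dusp1. With libraries 1 and 2 left out it was -2.91, -2.14 and -1.18. Libraries 1 to 3 held the highest Ikbkb+/+ values of these genes, so leaving them out had to give smaller falls. Nothing is read from that shift. The parts of these RNAs and of the sex-linked difference in the lower values were not tested.

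The proportions between the genes can be given within each library. Dusp2 gave 0.623 to 1.11 reads for each Gem read in Ikbkb+/+, 0.862 to 1.51 in PS19 and 0.492 to 0.824 in NTG libraries, and 0.667 to 1.43 in Ikbkb-/- libraries, where Gem had 3 to 10 reads. Dusp1 gave 3.49 to 6.94 reads for each Gem read in Ikbkb+/+, 4.05 to 6.89 in PS19 and 2.05 to 5.2 in NTG libraries. In Ikbkb-/- libraries, with their few Gem reads, it gave 12 to 18.3. The higher proportion was not particular to Ikbkb-/- among the cultures. Dusp1 and Gem averaged 31.19 and 3.394 CPM in IkbkbWT, and 35.24 and 2.978 CPM in IkbkbCA. For each read of the granulocyte gene S100a8 there were 0.187, 0.527, 1.34 and 1.4 Gem reads in Ikbkb+/+ libraries 1 to 4. There were 0.0821 to 0.941 in the adult libraries, and 0.269 to 0.75 in Ikbkb-/- libraries with their few Gem reads. The part of granulocytes in the Gem values was not tested.

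Immediate-early genes and ERK and NF-κB feedback genes of the same contrast are given as values. All 19 immediate-early genes tested had log2 fold changes below 0 (median -0.63), and 8 were lower without overlap, among them Fos (-1.21), Egr1 (-1.15) and Nr4a1 (-1.10). All 11 NF-κB feedback genes tested were below 0 (median -0.36), 4 without overlap, Nfkbia (-1.60), Tnfaip3 (-1.56) and Nfkb1 (-0.45) being the lowest of them. Nfkbia was 1465, 784.9, 655.5 and 357.4 CPM in Ikbkb+/+ libraries 1 to 4, the last within the IkbkbWT range. Egr1 did not fall in this order, at 482.9, 353.4, 398.2 and 371.2 CPM. ERK targets were divided, with 3 lower (Myc, -1.28; Egr1; Ier3, -0.65) and 2 higher (Ccnd1, 0.97; Phlda1, 0.27) of 14. Map2k1 (0.43) and Braf (0.31) were higher without overlap, and 0 of 8 MAP kinase genes were separate. Rrad (-0.31), Dusp7 (-0.14) and Dusp8 (-0.10) overlapped.

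For correlations over all 34 libraries, each library was set against the mean of its experiment on the log2 CPM scale. Dusp1 went with Dusp2 (Pearson r = 0.756) and with Gem (r = 0.739), and Dusp2 with Gem (r = 0.634). The points include Ikbkb+/+ libraries 1 to 3 and both groups of the Ikbkb-/- contrast on which the genes were selected. The difference between those groups enters each r, so the correlations are a description only. Dusp6 went with none of these 3 (r = -0.184 to 0.102), nor did Dusp16 (r = -0.158 to 0.034). Of 13722 genes, those most like Dusp1 were Socs3 (0.814), Hspa1b (0.795) and Slc1a3 (0.789), those most like Dusp2 were Cd74 (0.876), Nfkbiz (0.852) and H2-Aa (0.844), and those most like Gem were H2-Eb1 (0.772), Siglech (0.762) and Dusp1. Dusp4 was most like Hsph1 (0.795), Ezr and Rtn2, Dusp5 like Ppargc1b (0.729), Pam and St8sia4, Dusp6 like Lgmn (0.781), Lta4h and Btbd10, and Dusp16 like Prkca (0.7), Slc1a2 and Epn2.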

How the data were processed

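RNA of 34 microglia samples was sequenced as QuantSeq 3′ libraries, and the authors mapped the reads to GRCm38 on the BlueBee platform and deposited 1 table of raw counts per library, with 47643 Ensembl genes and 5 lines for reads not counted on a gene. Those 5 lines were left out; reads outside genes were 12.4% to 38.3% and ambiguous reads 0.409% to 0.708%. The 24 cortex samples were not analysed here. STAR and RSEM are named in the submitters' processing notes. Symbols came from GENCODE M21 (47224 identifiers matched) and promoters from RefSeq (GRCm38.p6).

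Groups came from the sample labels. Each comparison was fitted with edgeR 4.0.16 (R 4.3.3) on its own libraries, with TMM normalization, filterByExpr (minimum count 10, minimum total 15) and the quasi-likelihood test, Benjamini-Hochberg adjusted over all genes tested, two-sided, called at FDR under 0.05. Each SE is the log2 fold change divided by the square root of F. CPM came from one TMM normalization of 34 libraries. The fit was checked on simulated counts. The members, gene lists and tests were chosen with earlier results of these data known. Named genes were the members, Dusp7 to Dusp10, Ikbkb and Cx3cr1, up to the 3 highest and 3 lowest fold changes of each list among genes called without overlap between groups (in the Ikbkb-/- contrast, without overlap only), and the 3 genes most correlated with each member. Genes named beside these (Dusp3, the single cell type markers, Xist, Siglech, Hspa1a, Ergic1 and the lowest of the Ikbkb-/- contrast) were chosen after their values were seen. Alternatives were RLE size factors, total-count scaling, no filter, DESeq2 1.42.0, limma-voom (limma 3.58.1), age as a covariate and leaving out each library, and, added later, sets of alike libraries and the omission of libraries that stood apart. The sets were cut at summed CPM of 200 (neuronal markers) and 1000 (oligodendrocyte markers). The 34 libraries held 0 identical pairs. Counting limits cover counting error only.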

Additional observations from a re-analysis of the deposited data

Results flagged for a closer look

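Of 56 groups of member values checked for a single distant library, 3 were picked out, and chance alone picks about 1 in 20. Dusp6 in Ikbkb-/- library 2 was 778.5 CPM, above 701 to 710.5 CPM in the other 3 libraries. Dusp16 in IkbkbWT library 3, which was rich in oligodendrocyte RNA, was 28.73 CPM against 13.06 to 16.1 CPM in the other 4. Gem in tau fibril library 1 was 0.5452 CPM, a single read, where the other 3 libraries had 0 reads. The remaining item was a tested difference between experiments, the effect of tau fibrils on Dusp16 being lower than that of IkbkbCA by a log2 difference of -1.39 (edgeR quasi-likelihood test, FDR = 0.0224, over 18 libraries), with the fold changes -0.86 and 0.44.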

How the results depend on the processing

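No analysis paired by replicate number was run, because the numbers were given in accession order and the labels name no pairs. The sets of alike libraries, used as a covariate for IkbkbCA and IkbkbWT, were drawn from marker RNA after the data were seen and not from the numbers. They held the same library numbers in both groups. With tau fibrils the number of members called was 1 in the main analysis, 2 without the filter, 0 with limma-voom and 0 to 1 when single libraries were left out. In PS19 the members called were 0, and 1 without the filter, while the genes called in all were 8 in the main analysis, 166 without the filter, 98 with DESeq2, 4 with limma-voom, 0 with age as a covariate and 4 to 54 when single libraries were left out. For IkbkbCA the members called were 1 in the main analysis, 0 with RLE size factors, 0 without the filter, 2 with DESeq2, 3 with the set covariate and 0 to 3 when single libraries were left out, and the genes called rose from 1692 to 2846 with the set covariate. The difference between the tau and IkbkbCA effects called 1 member, and 0 to 1 when single libraries were left out. Signs turned for Gem in PS19 without PS19 library 3 (-0.118), without NTG library 2 (-0.0826) and with age as a covariate (-0.0595), with a range of -0.118 to 0.319 when single libraries were left out, for Gem in IkbkbCA without IkbkbWT library 5 (0.0893; range -0.399 to 0.0893) and for the Dusp6 difference of effects without vehicle library 3 (-0.0239; range -0.0239 to 0.268). The cause of these shifts was not tested. Members lower in every Ikbkb-/- library were 3 to 4 in all 12 alternatives. Nothing is read from that count, because the genes were selected on this contrast and groups with fewer libraries separate more easily. The log2 fold changes were less stable, at -3.88 to -1.51 for Gem, -3.52 to -0.82 for Dusp2 and -1.99 to -0.46 for Dusp1. The smallest falls came with Ikbkb+/+ library 4 as the only control, and nothing is read from them. Low counts of Dusp2, Dusp4 and Gem in culture limit what could be seen.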
